A study of Homo sapiens with 9 samples.

Results

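This comparison set the 6 libraries of cells given an siRNA against BCLIN25 beside the 3 libraries of cells given a control siRNA, gene by gene across the transcriptome. A gene entered where its level reached 1 FPKM (the number of fragments scaled to transcript length and library size, as the authors deposited it) in at least 3 of the 9 libraries, and 12317 of 18064 genes did. The titles name MDA-MB-231/PTX cells, which the design text describes as resistant to paclitaxel and as triple-negative breast cancer, and 3 groups of 3 libraries each. These are si-NC, the control siRNA, and si1-BCLIN25 and si2-BCLIN25, a pair of different siRNAs designed against the long noncoding RNA BCLIN25. All were grown in RPMI 1640 medium with fetal bovine serum, and no label gives paclitaxel in the medium, the time after transfection or the siRNA dose.

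The labels contradict each other. The source fields name PC9/GR, a gefitinib-resistant lung adenocarcinoma line, with knockdown of HUMT, and the control columns of the table carry the prefix X812, which the siRNA columns lack and no source used here explains. BCLIN25 was not matched to a row, so its own knockdown was not analysed here. Of 16 markers listed for MDA-MB-231, 14 reached 1 FPKM in every library, but the mesenchymal regulator ZEB1 stayed at or below 0.14 FPKM and the matrix protein SPARC at or below 0.06 FPKM. Of 12 markers listed for PC9, 5 reached 1 FPKM in all si-NC libraries and 7 in all siRNA libraries, and the epithelial ones among them, KRT7 (803 to 946 FPKM), EPCAM (92.7 to 143 FPKM), ESRP1 (51.2 to 76.1 FPKM), EGFR (34.5 to 59.6 FPKM) and CDH1 (31.4 to 46.5 FPKM), were abundant in every library. Of its lung markers, NKX2-1 stayed at or below 0.78 FPKM, NAPSA at or below 0.34 FPKM and SFTPC at or below 0.06 FPKM. SFTPB ran from 0.75 to 1.22 FPKM in si-NC and from 1.33 to 1.96 FPKM in the siRNA libraries, and was called higher. The squamous epithelial genes KRT5 and TP63 were well above these levels in every library. Neither line's full marker set was present, so the cells are called here by their library labels. Separate cultures are stated nowhere for the replicates, so a p-value here measures spread among libraries that may be technical only.

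A keratinocyte of a stratified epithelium starts in the basal layer, held to a laminin-rich basement membrane by integrins and marked by keratins 5 and 14 under the transcription factor p63. As it leaves that layer it adds desmosomes, cornified envelope proteins, serpins, kallikreins and S100 proteins. Wound-edge and invading cells instead make metalloproteinases, plasminogen activators, laminin 332 and inflammatory cytokines, many of them under AP-1, the dimer of FOS and JUN family proteins. Paclitaxel stabilises microtubules and kills dividing cells, and resistance to it has been linked to drug efflux pumps, survival proteins of the BCL2 family and changes of cell state.

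Most measured genes differed, and most differences were small. limma on log2(FPKM + 1), with the change taken as the mean of both siRNA groups minus si-NC, called 8294 of 12317 genes at an adjusted p under 0.05, or 67.3% of the genes tested. Of these, 5066 were higher in the siRNA libraries (41.1%) and 3228 lower (26.2%), and after quantile normalization the split was 4067 higher (33.0%) and 4001 lower (32.5%). The median change over all genes was 0.06 on the log2 scale and -0.00044 after quantile normalization. At least a 2-fold change was reached by 556 called genes (4.51%), of which 335 were higher (2.72%) and 221 lower (1.79%). Only 53 called genes rose by 2 log2 units or more and 36 fell by as much. At the other end, 3014 of the called genes changed by less than 0.25 on the log2 scale. For 4290 genes, or 34.8% of those tested, the whole 95% interval lay within 0.25 log2 units of 0, whether called or not.

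The groups stood clear of each other for many genes. All 6 siRNA libraries lay above all 3 si-NC libraries for 4249 genes (34.5%) and below them for 2728 (22.1%). Genes named below as largest rises or falls were required to be clear in this way, and list members were picked by p. Where such a gene is said below not to overlap, this describes its values and is no further result. The siRNA groups share their controls, so they were compared by their own difference, which called 72 genes (0.585%), of which 38 were higher in si1-BCLIN25 (0.309%) and 34 lower (0.276%). That count is unstable: it ran from 2 without si2-BCLIN25 replicate 3 to 126 without si-NC replicate 1, and was 6 with the replicate number as a block. For 9060 genes, or 73.6%, the 95% interval of that difference lay within 0.25 log2 units of 0. Of the 556 genes with at least a 2-fold change, 510 were called and at least 2-fold the same way with each siRNA alone, and 20 differed between the siRNAs.

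**Figure D1:**
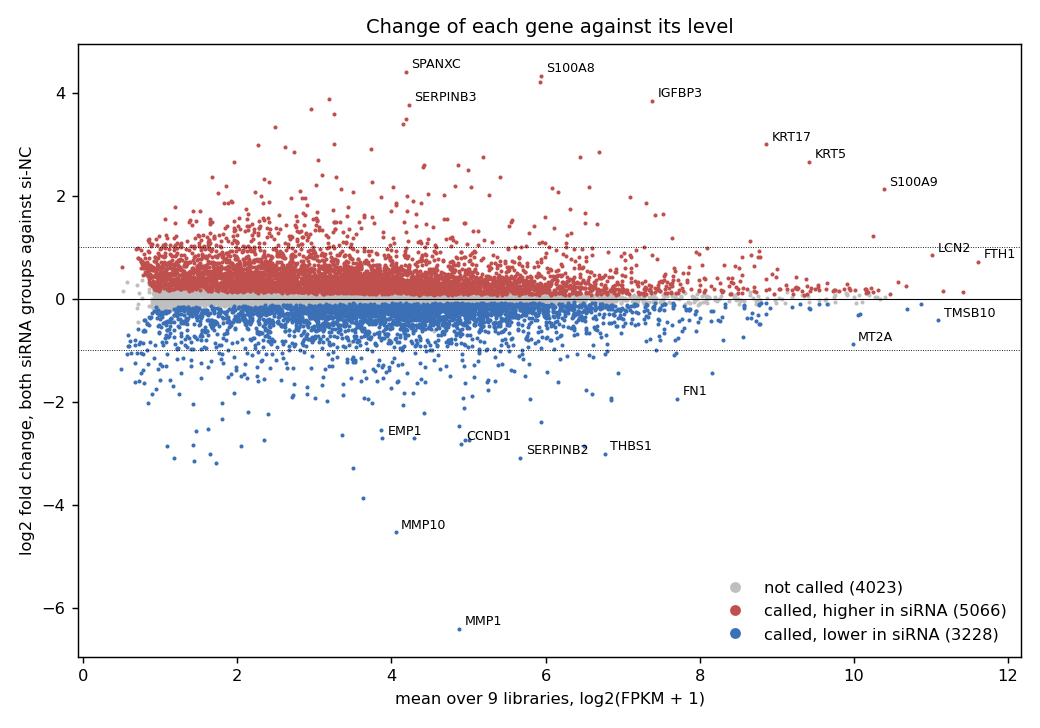
Each point is 1 of the 12317 genes, with its mean log2(FPKM + 1) over the 9 libraries on the x axis and its log2 change in the siRNA libraries against si-NC on the y axis, and some of the named genes are labelled. Most points lie near 0, S100A8 lies at 4.33 and MMP1 at -6.41.

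The libraries differed in which transcripts made up the total. Summed over the genes tested, 47196 FPKM were gained and 34452 FPKM lost, which are 11.8% and 8.61% of the si-NC total. The mean total itself was larger in the siRNA libraries (413218 FPKM) than in si-NC (400354 FPKM), so gains and losses are not expected to balance. The 10 genes that gained most held 17.7% of the gain, and the 10 that lost most held 11.8% of the loss. The largest single gain was that of S100A9, which with S100A8 forms calprotectin, a metal-binding protein of neutrophils and stressed keratinocytes. S100A9 stood at 534, 481 and 493 FPKM in the si-NC libraries and at 1955 to 2556 FPKM with a median of 2147 in the siRNA libraries. FTH1, the heavy chain of the iron store ferritin, stood at 2276, 2270.1 and 2222 FPKM against 3567 to 3813 FPKM with a median of 3721. LCN2, which binds iron-carrying siderophores, stood at 1430.2, 1414 and 1352 FPKM against 2368 to 2718 FPKM with a median of 2495. For these 3 genes the groups did not overlap.

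KRT5, KRT19, KRT17, IGFBP3, B2M, FABP5 and PTMA completed the 10 largest gains. PTMA changed by 0.25 on the log2 scale as deposited but by only 0.0025 after quantile normalization, and B2M by 0.33 and 0.16. The largest loss was that of MT2A, a metallothionein that binds zinc and copper, which stood at 1559, 1569 and 1458 FPKM in si-NC and at 791 to 899 FPKM with a median of 817 in the siRNA libraries. TMSB10, an actin-monomer binding protein, stood at 2828, 2818 and 2351 FPKM against 1807 to 2304 FPKM with a median of 1960.3. Its lowest si-NC library lay close to its highest siRNA library, without overlap. MMP1, THBS1, FN1, TGM2, ACTB, NPM1 and S100A2 were also among the 10 largest losses, so the list joined secreted matrix proteins with cytoskeletal ones.

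Keratins of stratified epithelium rose. Of 10 tested basal and stratified keratins, 9 were higher and 1 lower, with a median change of 1.83, against 41.1% higher and 26.2% lower over all genes, the shares against which every list's count below is to be read. KRT5, the type II keratin of basal keratinocytes, stood at 200.4, 202 and 196 FPKM in si-NC and at 1208 to 1369 FPKM with a median of 1239.6 in the siRNA libraries, a log2 change of 2.66 ± 0.03 (SE, with 3 si-NC and 6 siRNA libraries; limma adjusted p = 9.8e-15). KRT14, its basal partner, stood at 0.54, 0.63 and 0.39 FPKM against 17.7 to 24.1 FPKM with a median of 22.4, a log2 change of 3.89 ± 0.06 (limma adjusted p = 9.6e-14). KRT5 was already abundant in si-NC and KRT14 nearly absent, and for both every siRNA library lay above every si-NC library. KRT13, of mucosal suprabasal layers, went from 0.22 to 8.74 FPKM on average and KRT16, of hyperproliferative epidermis, from 0.8 to 11.9 FPKM. KRT14, KRT16 and KRT17 are close in sequence, and so are KRT6A and KRT6B, so the authors' counting could have moved reads between them.

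KRT23 was the basal-list member that fell, by 0.71 on the log2 scale. Keratins of simple epithelium, listed together with KRT80, moved in both directions. Of 5 tested, KRT19 rose (1.22), KRT8, KRT18 and KRT80 fell (-0.12, -0.76 and -0.35) and KRT7 was not called. KRT18, the simple keratin that pairs with KRT8, went from 299.8 to 177 FPKM on average.

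The factors of squamous lineage mostly rose. Of 18 tested, 11 were higher and 4 lower, with a median of 0.45. TP63, the master regulator of stratified epithelium, stood at 30.7, 31.2 and 31.3 FPKM against 60.4 to 66.2 FPKM with a median of 64.4 (log2 change 1.02 ± 0.04, limma adjusted p = 8.9e-11). SOX2, a stem cell factor co-amplified with TP63 in squamous cancers, stood at 7.51, 7.64 and 7.86 FPKM against 33.4 to 36.2 FPKM with a median of 34.9 (log2 change 2.04 ± 0.03). SOX9, a progenitor factor of breast and hair follicle, moved the other way, from 58.4, 59.7 and 58.4 FPKM to 10.8 to 12.8 FPKM with a median of 11.8 (log2 change -2.23 ± 0.04, limma adjusted p = 1.2e-13). None of the 3 overlapped between groups. ELF3, an epithelial ETS factor, went from 5.51 to 37.2 FPKM on average, PITX1 from 11.5 to 35.8 and SOX15 from 2.23 to 10.4. KLF4, TFAP2C and PRDM1 fell by 0.46, 0.50 and 0.62 on the log2 scale.

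Desmosome genes, which rivet neighbouring epithelial cells together, were higher for 8 of 10 tested and lower for 0, with a median of 0.58. The desmosomal cadherin DSG3 stood at 3.84, 4.09 and 4.3 FPKM against 12.5 to 14.2 FPKM with a median of 13.2, and the plaque protein JUP at 88.7, 106 and 96.7 FPKM against 187 to 199 FPKM with a median of 197. PKP2 and PKP3 were not called, with changes of 0.10 and 0.07. Cornified envelope and barrier genes were higher for 10 of 16, lower for 2 and not called for 4, with a median of 0.47 that fell to 0.27 after quantile normalization. CSTA, a cysteine protease inhibitor of the envelope, stood at 30.8, 28.2 and 29.7 FPKM against 87.1 to 99.7 FPKM with a median of 90.1. Involucrin, IVL, a scaffold of the envelope, stood at 1.34, 1.51 and 1.92 FPKM against 4.85 to 6.76 FPKM with a median of 5.74. All siRNA libraries exceeded all si-NC libraries for both. SCEL and SPRR2A fell, by 0.87 and 0.40 on the log2 scale.

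LY6D, a surface protein of keratinocytes, was the only tested gene at or below 0.1 FPKM in all libraries of one side and at or above 3 FPKM in all of the other. It was listed at 0.07 FPKM in each si-NC library, and its siRNA libraries ranged from 3.03 to 6.23 FPKM with a median of 4.96.

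Tight junction genes split evenly, with 7 of 17 higher, 7 lower and 3 not called. F11R and CXADR rose (0.51 and 0.56), and CLDN4 fell by 0.89 on the log2 scale. CLDN1, the main claudin of the epidermal barrier, was not called, at 118 to 119 FPKM.

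Genes for attachment to the basement membrane were more often lower than higher. Of 13 laminin and hemidesmosome genes, 7 were lower and 4 higher, with a median of -0.29. LAMA3, a chain of laminin 332, stood at 297, 281 and 277 FPKM against 68.7 to 74 FPKM with a median of 72.7 (log2 change -1.97 ± 0.03, limma adjusted p = 9.6e-14). LAMB3, a further chain, went from 154 to 106 FPKM on average. ITGA6, the laminin-binding integrin of hemidesmosomes, stood at 329, 335 and 347 FPKM against 156 to 164 FPKM with a median of 162. These groups did not overlap. ITGB4, its partner, was not called (-0.11), and COL17A1 rose by 0.25. Of 11 other integrins, 5 fell and 1, ITGAV, rose. ITGA2, of the collagen receptor, fell by 1.60 on the log2 scale and ITGB5, of a vitronectin receptor, by 1.62, whereas ITGB1 was not called (-0.02).

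Proteases and their inhibitors moved in both directions. Of 15 metalloproteinases and TIMP inhibitors, 7 were higher, 5 lower and 3 not called. MMP1 and MMP10, which cut collagen and proteoglycans, fell by 6.41 and 4.54 on the log2 scale. MMP28, an enzyme of resting and regenerating keratinocytes, stood at 9.73, 8.76 and 9.1 FPKM against 36.4 to 43.5 FPKM with a median of 40.6. MMP13, a collagenase, stood at 2.86, 3.03 and 2.95 FPKM against 8.82 to 13.6 FPKM with a median of 10.6; MMP1 and MMP10 lie near it on chromosome 11. TIMP1, an inhibitor of metalloproteinases, stood at 13.8, 15.4 and 15.3 FPKM against 2.36 to 3.77 FPKM with a median of 3.54 (log2 change -1.91 ± 0.09, limma adjusted p = 1.3e-09). Every siRNA library lay above every si-NC library for MMP28 and MMP13, and below for TIMP1.

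All 9 tested genes of plasminogen activation were lower, against 26.2% over all genes, with a median of -0.82. PLAU, the urokinase that makes plasmin, went from 179 to 84 FPKM on average, and its receptor PLAUR from 76.6 to 31.2. PLGRKT, a plasminogen receptor, went from 28.9 to 10.4 FPKM. Kallikreins, the serine proteases that loosen the outer epidermis, and the elastase inhibitors listed with them were higher for 6 of 7. The elastase inhibitor PI3 was the member that fell (-0.30). KLK10 stood at 2.23, 3 and 2.26 FPKM against 21.3 to 30.4 FPKM with a median of 24.8. Of the clade B serpins, 8 of the 9 listed together were higher, while SERPINB2, counted above with plasminogen activation, fell by 3.10 on the log2 scale; SERPINB13 stood at 0.95, 0.87 and 0.65 FPKM against 18.9 to 22.1 FPKM with a median of 20.8. SERPINB3 and SERPINB4 are near-identical, so their values are uncertain singly, and both rose (3.77 and 2.95). SERPINB8 also fell, by 0.86 on the log2 scale. S100 proteins were higher for 8 of 11 and lower for 3. S100A7, psoriasin, stood at 0.55, 0.28 and 0.41 FPKM against 14.3 to 23.3 FPKM with a median of 16.4.

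The upstream sequences of 3 of the largest falls are shown because each holds an AP-1 motif. The motif searched was TGANTCA on both strands, in the 250 bases before the start in RefSeq's gene table (GRCh38.p14), and capitals mark it. MMP10 lies at chr11:102780629-102780878 on the minus strand, with the motif's first base 67 bases before the start. SERPINB2, a urokinase inhibitor, lies at chr18:63887455-63887704 on the plus strand, with the motif 102 bases before it. EMP1, an epithelial membrane protein, lies at chr12:13196476-13196725 on the plus strand, with motifs 175 and 48 bases before it.
MMP10: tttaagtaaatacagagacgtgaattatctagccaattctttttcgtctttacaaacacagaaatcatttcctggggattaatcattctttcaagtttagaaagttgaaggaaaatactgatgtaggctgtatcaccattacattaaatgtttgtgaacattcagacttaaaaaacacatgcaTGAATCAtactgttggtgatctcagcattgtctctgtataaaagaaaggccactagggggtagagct
SERPINB2: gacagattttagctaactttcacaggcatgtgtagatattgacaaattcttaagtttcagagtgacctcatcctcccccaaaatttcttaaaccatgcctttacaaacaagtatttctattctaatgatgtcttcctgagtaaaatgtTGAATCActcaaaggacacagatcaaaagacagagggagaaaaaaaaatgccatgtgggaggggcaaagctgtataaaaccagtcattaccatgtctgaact
EMP1: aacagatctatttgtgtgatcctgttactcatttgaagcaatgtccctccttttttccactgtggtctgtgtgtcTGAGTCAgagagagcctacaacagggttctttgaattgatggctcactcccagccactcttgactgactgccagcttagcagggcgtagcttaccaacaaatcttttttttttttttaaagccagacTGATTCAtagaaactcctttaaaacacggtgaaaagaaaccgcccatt

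Among the 20 largest falls by the naming rule, 11 had a window and 4 held the motif, those of MMP10, SERPINB2, EMP1 and LAMA3. Among the 20 largest rises, 18 had a window and 0 held it. Over wider sets this contrast was not seen: 18 of the 163 windows of genes at least 2-fold lower held it, 23 of the 248 at least 2-fold higher (9.27%), and 387 of all 10061 (3.85%). A match is only a run of letters in the window, and occupancy by any factor was not analysed here. Of the 10 AP-1 factors tested, 5 were lower, 3 higher and 2 not called. FOSL1, the FOS family member most linked to invasive cells, stood at 188, 191 and 177 FPKM against 30.9 to 38.5 FPKM with a median of 34.4. JUNB, which favours epidermal differentiation, stood at 16.9, 19.7 and 17.5 FPKM against 42.9 to 49.3 FPKM with a median of 46.5. Every siRNA library lay below every si-NC library for FOSL1, as the rule for the largest falls required, and above for JUNB. FOSL2 was not called, with a change of -0.00.

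Of the other motifs, GGAATG, which TEAD factors bind, was in 9.41% of all windows, 9.27% of those at least 2-fold higher and 9.82% of those at least 2-fold lower. CACGTG, the E-box, was in 8.95%, 5.24% and 7.36%, and TGACGTCA, which CREB and ATF factors bind, in 2.95%, 1.21% and 2.45%. The ISRE, bound by interferon regulatory factors, was in 2.31%, 7.26% and 2.45%. TNFSF10 is shown as the largest rise with that motif in its window, at chr3:172523431-172523680 on the minus strand, 187 bases before the start, where it reads on the opposite strand.
TNFSF10: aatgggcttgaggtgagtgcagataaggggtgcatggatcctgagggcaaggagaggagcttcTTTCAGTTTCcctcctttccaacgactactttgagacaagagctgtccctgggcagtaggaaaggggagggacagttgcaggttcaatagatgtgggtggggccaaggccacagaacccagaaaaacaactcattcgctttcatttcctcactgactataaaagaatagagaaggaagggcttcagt

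TNFSF10 encodes TRAIL, a ligand that triggers death receptors. It stood at 3.16, 2.51 and 2.33 FPKM in si-NC and at 36.7 to 43.8 FPKM with a median of 39.9 in the siRNA libraries (log2 change 3.49 ± 0.06, limma adjusted p = 9.4e-14). Its receptors TNFRSF10A and TNFRSF10B and the decoy TNFRSF10D fell, by 0.77, 0.32 and 0.61 on the log2 scale. Over 31 apoptosis genes, 16 were lower and 11 higher. BCL2L1, which encodes the survival protein BCL-xL, stood at 124, 127 and 121 FPKM against 44 to 47.2 FPKM with a median of 45.8. Also on the survival side, BCL2A1, BIRC2, BCL2 and MCL1 fell (-0.94, -0.67, -0.45 and -0.30). On the death side, BMF, BIK and BBC3 rose (1.73, 0.82 and 0.67), while BAX and FAS were not called and BCL2L11 fell by 0.27 on the log2 scale.

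**Figure D2:**
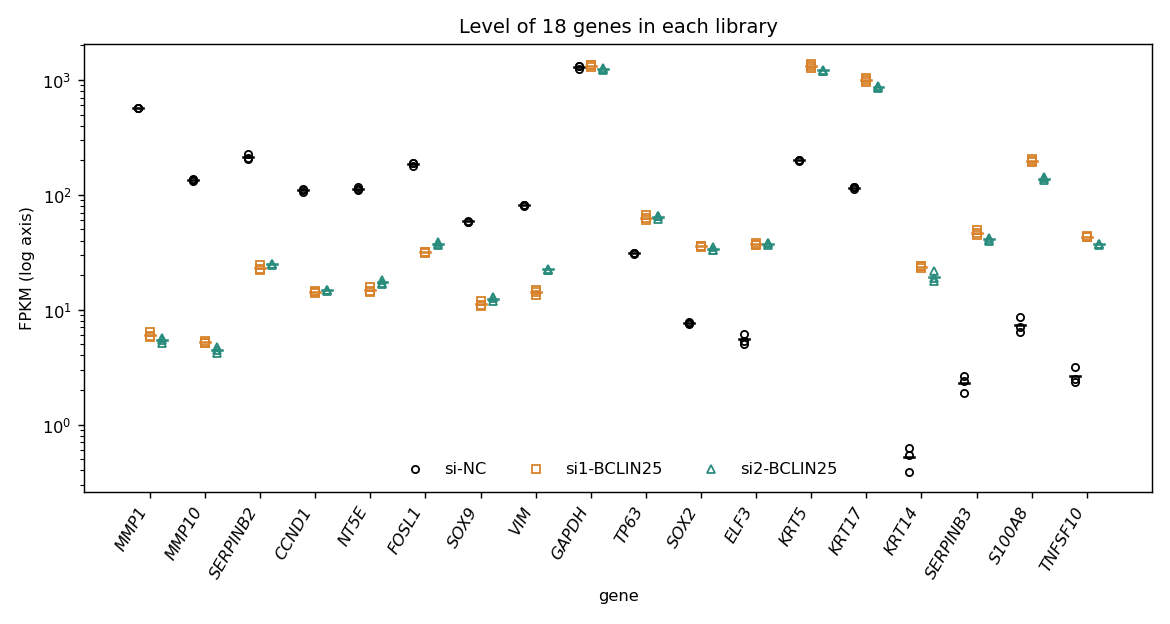
FPKM on a log axis for 18 genes (x axis) in each of the 9 libraries, with circles for si-NC, squares for si1-BCLIN25, triangles for si2-BCLIN25 and a bar at each group mean. GAPDH lies at one height in all libraries, whereas KRT14 stood at 0.54, 0.63 and 0.39 FPKM in si-NC and at 17.7 to 24.1 FPKM with a median of 22.4 in the siRNA libraries.

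Genes of the YAP and TAZ list were lower for 19 of 25, higher for 3 and not called for 3, with a median of -0.59. YAP and TAZ are coactivators that sense stretch and cell crowding, and the list holds them, the TEAD factors they bind and their targets. ANKRD1, a widely used target, stood at 14.3, 13 and 12.9 FPKM against 0.41 to 0.87 FPKM with a median of 0.54. CCN1, a secreted matricellular target, stood at 42.3, 41.2 and 43.2 FPKM against 11.6 to 14.2 FPKM with a median of 13. Neither overlapped between groups, and CCN2, its relative, went from 7.94 to 1.2 FPKM on average. YAP1, WWTR1 (TAZ) and TEAD4 themselves fell (-0.41, -0.73 and -0.59). AJUBA, FOXF2 and TEAD3 rose.

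Of 11 EGF family receptors and ligands, 6 were higher and 5 lower. The EGF receptor ligands TGFA and HBEGF fell, by 2.47 and 1.51 on the log2 scale, AREG and EREG fell by 0.32 and 0.31, and BTC and EPGN rose by 0.66 and 0.70. NRG4, a ligand of ERBB4, rose by 0.83. HBEGF stood at 53.7, 53.2 and 52.5 FPKM against 17 to 18.9 FPKM with a median of 18.2. The receptor EGFR itself stood at 53.3, 57.9 and 59.6 FPKM against 34.5 to 37.5 FPKM with a median of 36.1, and its partners ERBB2 and ERBB3 rose by 0.30 and 0.33.

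Of 15 Notch genes, 9 were higher, 2 lower and 4 not called. The ligand JAG2 stood at 14.2, 15.1 and 14.9 FPKM against 40.5 to 45 FPKM with a median of 42, while the ligand JAG1 fell by 0.77 on the log2 scale. NRARP, a target that feeds back on the pathway, stood at 2.11, 2.31 and 2.23 FPKM against 7.61 to 10.2 FPKM with a median of 9.02, and the target HES1 was not called (-0.01). NOTCH1 went from 1.75 to 5.44 FPKM on average. WNT genes did not move one way, with 12 of 31 higher, 10 lower and 9 not called, and 8 higher and 13 lower after quantile normalization. WNT10A, a ligand needed for ectodermal organs, stood at 0.18, 0.27 and 0.15 FPKM against 10.1 to 12.2 FPKM with a median of 11, and the antagonist DKK1 went from 46.1 to 7.09 FPKM on average. In the IGF system, 6 of 13 were higher and 4 lower. The growth factor IGF2 stood at 25.9, 29.8 and 24.4 FPKM against 99.2 to 133 FPKM with a median of 114, and IGFBP6, which binds it, rose by 1.16.

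Cytokine genes mostly fell. Of 22 neutrophil chemokines and cytokines, 16 were lower and 4 higher, with a median of -0.97. CXCL5, a neutrophil attractant, stood at 162, 159 and 172 FPKM against 72 to 76.8 FPKM with a median of 74.8. IL1A, an alarm cytokine of epithelium, stood at 164, 149.5 and 156 FPKM against 68.7 to 75.5 FPKM with a median of 73.4. CSF3, the granulocyte growth factor, stood at 39.5, 40.4 and 38.4 FPKM against 15.7 to 21 FPKM with a median of 17.6. None of these overlapped between groups. Of the IL6 family, IL6, IL11 and LIF fell by 1.75, 1.84 and 2.06 on the log2 scale. IL18 and IL36G, cytokines of the IL1 family, moved up, and IL18 stood at 11.6, 11.6 and 11.7 FPKM against 24.7 to 26.8 FPKM with a median of 25.6. CXCL16 and CSF1 also rose, and CXCL6 and CCL5 were not called.

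Genes of antigen presentation rose. Of 20 HLA class I and peptide-loading genes, 17 were higher and 0 lower, with a median of 0.48, and the count was 17 higher and 0 lower after quantile normalization. PSMB9, a subunit of the immunoproteasome, stood at 3.62, 3.85 and 5.17 FPKM against 11.1 to 13.3 FPKM with a median of 12.2, without overlap. HLA genes share sequence, so single HLA values are uncertain, and HLA-G, TAP2 and PSMB10 were not called. Proteasome subunits as a whole moved little, with 6 of 31 higher, 10 lower and 15 not called.

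Of 13 checkpoint ligands and ectoenzymes, 7 were lower and 5 higher. CD274 encodes PD-L1, which restrains T cells, and stood at 16.3, 13.5 and 14.6 FPKM against 2.54 to 4.24 FPKM with a median of 3.36 (log2 change -1.88 ± 0.07, limma adjusted p = 1.3e-10). PDCD1LG2 (PD-L2), PVR and HHLA2 fell (-0.90, -0.52 and -0.86), and VSIR and TNFSF9 rose (0.54 and 0.96). Prostaglandin genes held 5 of 11 higher and 5 lower. PTGS2, the inducible cyclooxygenase, fell by 2.74 on the log2 scale, while PTGES, which makes prostaglandin E2 from its product, and HPGD, which breaks that down, rose by 0.86 and 0.88.

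Cell cycle genes moved by small amounts apart from a few. Cyclin D1, CCND1, which drives exit from G1, stood at 106, 112 and 109 FPKM against 14 to 15 FPKM with a median of 14.6. Of 17 G1 genes, 8 were lower and 5 higher, and CDK6, CCND3 and CDK2 fell (-0.65, -0.53 and -0.37). RB1, the retinoblastoma protein named in the design text, stood at 1.54, 1.54 and 1.42 FPKM against 1.44 to 2.01 FPKM with a median of 1.76 and was not called (log2 change 0.13 ± 0.07, limma adjusted p = 0.12). Its groups overlapped. Of 43 E2F and replication genes, 21 were higher and 11 lower, and of 44 mitosis genes 23 were higher and 10 lower. Both held a larger share of higher genes than the 41.1% over all genes, with medians of 0.11 and 0.13. After quantile normalization the counts were 19 and 11, and 24 and 10, against 33.0% higher and 32.5% lower over all genes. The proliferation marker MKI67 fell by 0.12 on the log2 scale, and PCNA was not called (0.04). E2F2 and E2F7 moved apart: the activator E2F2 stood at 1.63, 1.44 and 1.63 FPKM against 5.16 to 5.98 FPKM with a median of 5.75, and the repressor E2F7 at 24.6, 26.7 and 27 FPKM against 9.2 to 10.5 FPKM with a median of 9.91. In mitosis, CDC25B and HMMR rose most, by 0.81 and 0.81, and UBE2C and CENPA fell by 0.36 and 0.42. Of 17 histone genes 5 were higher and 6 lower.

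Drug efflux genes were higher for 10 of 12, with a median of 0.27, and for 6 of 12 after quantile normalization. The largest rises were those of MVP, the major vault protein, and ABCB4, a phospholipid pump, from 0.97 to 2.9 and 0.58 to 1.53 FPKM on average. ABCC1, a pump for conjugated drugs, went from 16.1 to 19.7 FPKM. ABCA1, which exports cholesterol, was the member that fell, and stood at 6.38, 6.83 and 7.21 FPKM against 2.59 to 3 FPKM with a median of 2.81.

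Enzymes of retinoids, aldehydes and xenobiotics moved in part together. Of 14 retinoic acid genes, 10 were higher and 2 lower, and 10 and 4 after quantile normalization. TGM2, a transglutaminase induced by retinoic acid, fell by 2.86 on the log2 scale, from 338 to 45.8 FPKM on average. CRABP2, which delivers retinoic acid to its nuclear receptor, stood at 27.6, 26.9 and 25.1 FPKM against 189 to 215 FPKM with a median of 198. DHRS3, which turns retinal back to retinol, stood at 38.8, 43.4 and 41.3 FPKM against 124 to 140.4 FPKM with a median of 133. Neither overlapped between groups, and RARG and RARB, retinoic acid receptors, rose by 1.08 and 0.69. Of 13 aldehyde dehydrogenases, 8 were higher and 2 lower. ALDH3A2 went from 14.6 to 34.5 FPKM on average, while ALDH1A3, by far the most abundant member, was not called at 842 to 859.9 FPKM.

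Of 11 genes of the AHR pathway, which senses aromatic compounds, 6 were higher and 4 lower. Its CYP1 targets moved apart: CYP1A1 stood at 5.05, 5.06 and 4.44 FPKM against 19.7 to 23.6 FPKM with a median of 21.9, and CYP1B1 at 8.6, 8.87 and 9.43 FPKM against 0.35 to 0.46 FPKM with a median of 0.38. UGT1A6, a conjugating enzyme whose last exons are shared with other UGT1A genes, stood at 10.3, 9.35 and 8.27 FPKM against 43.1 to 49 FPKM with a median of 46. AHR and its partner ARNT rose by 0.51 and 0.50.

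ASS1, which makes the arginine precursor argininosuccinate, stood at 24.2, 22.9 and 23.2 FPKM against 148 to 183 FPKM with a median of 162 (log2 change 2.76 ± 0.04, limma adjusted p = 2.2e-14). Of 22 amino acid genes, 13 were higher and 8 lower. SLC7A5 and SLC3A2, the chains of the LAT1 leucine transporter, both rose, from 283 to 541 and from 173 to 344 FPKM on average. The polyamine enzymes ODC1, SRM and SMS fell by 0.40, 0.36 and 0.20 on the log2 scale.

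Of 37 lysosome and autophagy genes, 24 were higher and 6 lower. The protease CTSD stood at 159, 181 and 168 FPKM against 293 to 333 FPKM with a median of 311, and the autophagosome protein GABARAPL1 at 9.7, 9.27 and 9.2 FPKM against 24.5 to 29.1 FPKM with a median of 26.6. GAA, LIPA and CTSB, further hydrolases, rose by 1.05, 0.90 and 0.84, while NPC2 and CTSC fell by 0.62 and 0.43 on the log2 scale. Of 26 fatty acid genes, 14 were higher and 5 lower. FABP5, the fatty acid carrier of keratinocytes, went from 239 to 524 FPKM on average, and FABP4, its adipocyte relative, stood at 20.4, 24.8 and 23.9 FPKM against 54 to 71.8 FPKM with a median of 64.6. FASN was not called (0.11).

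Hypoxia and glycolysis genes divided, with 15 of 34 higher and 14 lower. NDRG1, a stress and differentiation gene, stood at 46.8, 44.5 and 44.7 FPKM against 119 to 134 FPKM with a median of 127, EGLN3, an oxygen-sensing hydroxylase, at 2.2, 1.48 and 1.45 FPKM against 8.78 to 12.3 FPKM with a median of 10.3, and CA9, a surface carbonic anhydrase, at 0.3, 0.15 and 0.45 FPKM against 2.91 to 5.61 FPKM with a median of 4.61. VEGFA, the vessel growth factor, went the other way, at 24.6, 23.2 and 23.8 FPKM against 12.4 to 13.4 FPKM with a median of 12.9. HK2, PDK1 and BNIP3 also fell (-0.62, -0.54 and -0.41). Of 18 small RNA processing genes, 3 were higher, 6 lower and 9 not called. The nuclease genes DROSHA and DICER1 changed by -0.07, not called, and -0.12, called lower.

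Cancer-testis genes, silent in most adult tissues, were higher for 6 of 10 and lower for 1. SPANXC and SPANXA1 are shown because their 250 upstream bases differ at only 3 positions, with 247 identical. SPANXC lies at chrX:141242518-141242767 and SPANXA1 at chrX:141584739-141584988, both on the minus strand, and neither holds any of the motifs searched.
SPANXC: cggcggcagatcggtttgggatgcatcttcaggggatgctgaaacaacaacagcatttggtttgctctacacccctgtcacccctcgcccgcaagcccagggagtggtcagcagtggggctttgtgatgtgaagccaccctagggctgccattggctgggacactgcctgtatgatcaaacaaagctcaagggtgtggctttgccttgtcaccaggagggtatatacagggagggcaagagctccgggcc
SPANXA1: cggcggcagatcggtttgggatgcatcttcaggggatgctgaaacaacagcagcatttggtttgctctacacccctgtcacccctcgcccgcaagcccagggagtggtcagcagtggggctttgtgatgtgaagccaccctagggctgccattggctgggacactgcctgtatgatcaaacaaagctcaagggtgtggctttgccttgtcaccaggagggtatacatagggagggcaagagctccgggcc

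SPANX genes are near-identical copies, so how the authors' counting divided reads among them is uncertain, and the 4 tested members rose together (4.22, 2.59, 4.41 and 2.36). The MAGE genes did not: MAGEA12 and MAGEC1 rose, MAGEA3 fell by 0.47 on the log2 scale, and MAGEA2, MAGEA6 and MAGEC2 were not called.

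**Figure D3:**
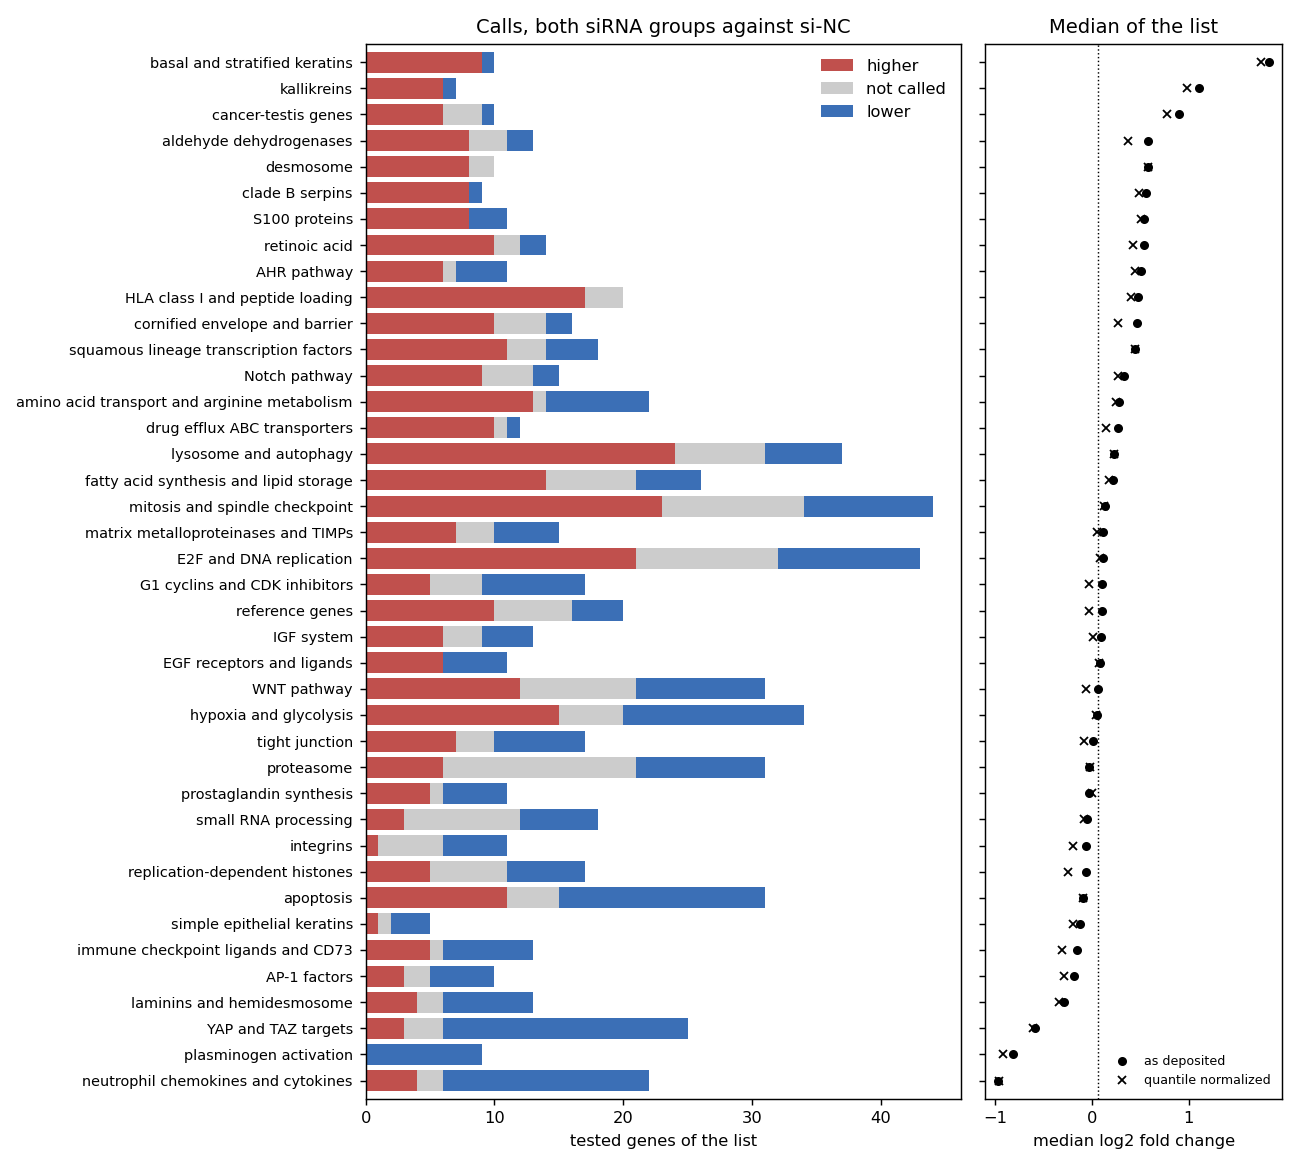
Left, the number of tested genes called higher, not called and called lower in each of 40 gene lists (stacked bars). Right, the list's median log2 change as deposited (dots) and after quantile normalization (crosses), with a dotted line at the median of all genes tested. The basal keratins have a median of 1.83, the cytokines one of -0.97, and all genes tested one of 0.06.

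Among genes outside these lists, some of the largest rises were of secreted or surface proteins. OLR1, a scavenger receptor for oxidised lipoprotein, stood at 7.84, 7.7 and 7.94 FPKM against 47 to 56.4 FPKM with a median of 53.5. AQP3, the water and glycerol channel of basal keratinocytes, stood at 9, 9.49 and 8.75 FPKM against 50.3 to 62.8 FPKM with a median of 55.6. LOXL4, which cross-links collagen, stood at 12.6, 13.7 and 13.8 FPKM against 68.8 to 76.7 FPKM with a median of 72.4, and PTN, a heparin-binding growth factor, at 3.47, 3.79 and 3.79 FPKM against 20.6 to 23.1 FPKM with a median of 21.7. For each, the naming rule required that all 6 siRNA libraries lie above si-NC. Among the falls, ANTXR2, a receptor for collagen and anthrax toxin, stood at 31.9, 33.1 and 34.8 FPKM against 6.84 to 8.31 FPKM with a median of 7.3. FERMT1, a kindlin that activates integrins in keratinocytes, stood at 133, 137 and 139.8 FPKM against 32.2 to 37.1 FPKM with a median of 34.5.

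Genes commonly taken as references were called about as often as genes at large (67.3%). Of 20, 10 were higher, 4 lower and 6 not called, and 7 were higher and 6 lower after quantile normalization. GAPDH, at 1315, 1311 and 1245 FPKM against 1233 to 1364 FPKM with a median of 1280.0, was not called (log2 change -0.0015 ± 0.03, limma adjusted p = 0.97). ACTB fell by 0.21 and B2M rose by 0.33. EEF1A1 and TUBB rose by 0.15 and 0.14, but their changes were -0.05 and -0.0097 after quantile normalization. PPIA, not called at 0.08, was called lower at -0.07 there.

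Genes of low level were more often higher than lower as deposited. Among the 3080 genes with the lowest levels, 138 were at least 2-fold higher and 78 at least 2-fold lower, and the median change was 0.16. Among the 3079 with the highest levels the counts were 59 and 57, and the median was 0.01. After quantile normalization these medians were -0.03 and 0.01. Fewer genes were at 1 FPKM or above with the control siRNA (11812 to 11856 per library) than with an siRNA against BCLIN25 (12091 to 12139). Summed FPKM per library ran from 394081 to 419025. The depth in reads is unknown, since the table holds FPKM alone.

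Neighbouring genes had lower levels together along chromosome 20 and much of chromosome 2, and by smaller amounts on chromosome 9. On chromosome 2, 429 of 822 tested genes were lower (52.2%) and 199 higher, with a median of -0.15. On chromosome 20, 189 of 316 were lower (59.8%) and 54 higher, with a median of -0.22, and 0 were at least 2-fold higher against 13 at least 2-fold lower. Every other chromosome but chromosome 9, at -0.04, had a median above 0. With si1-BCLIN25 alone the medians were -0.18 on chromosome 2 and -0.20 on chromosome 20, and with si2-BCLIN25 alone -0.16 and -0.22, all against the same controls. Running medians over windows of 50 neighbouring genes lay below 0 in 267 of 267 windows on chromosome 20 and in 549 of 773 on chromosome 2. On chromosome 9 the windows were below 0 in 316 of 451, and 193 of its 500 genes were lower (38.6%) and 156 higher (31.2%). The 224 windows of chromosome 2 above 0 all lay in its last 40%, by gene order from the short arm's tip. The lowest window median was -0.51, on chromosome 2 from LOC105375809 to IWS1, where 41 genes were lower and 5 higher. The lowest on chromosome 20, from PFDN4 to RTEL1, was -0.33, with 40 lower and 3 higher. Some neighbours were also higher together. The highest window median was 0.30, on chromosome 1 from TAF12 to TRIM62, with 36 higher and 6 lower. On chromosome 19, the window from INAFM1 to TEAD2 had a median of 0.29, with 32 higher and 6 lower. The middle 90% of windows ran from -0.22 to 0.20. Gene order came from RefSeq's table, and the authors' genome build is not given in the sources used here.

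Several genes described above lie on these chromosomes. BCL2L1, TGM2, SLCO4A1 and FERMT1 lie on chromosome 20, and FN1, TGFA, IL1A, ITGA6 and CYP1B1 on chromosome 2. All were named for their changes, and all fell by more than those chromosomes' medians. FN1 and ITGA6 lie where chromosome 2 is above 0, and the windows starting at them had medians of 0.18 and 0.12. Those starting at TGFA, IL1A and CYP1B1 had medians of -0.32, -0.51 and -0.24. TMSB10, CENPA, ODC1, HK2 and BCL2L11, whose falls are given above, also lie on chromosome 2. BCL2L11 fell by less than the median of the window starting at it, which was -0.49. WNT10A and UGT1A6, also on chromosome 2, rose. Without the genes of both chromosomes, 7423 of 11179 genes were called, 4813 higher and 2610 lower. Whether the libraries labelled siRNA and si-NC came from cells with the same chromosome copies was not tested, and a difference in the cells that were transfected cannot be told apart here from the siRNA.

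**Figure D4:**
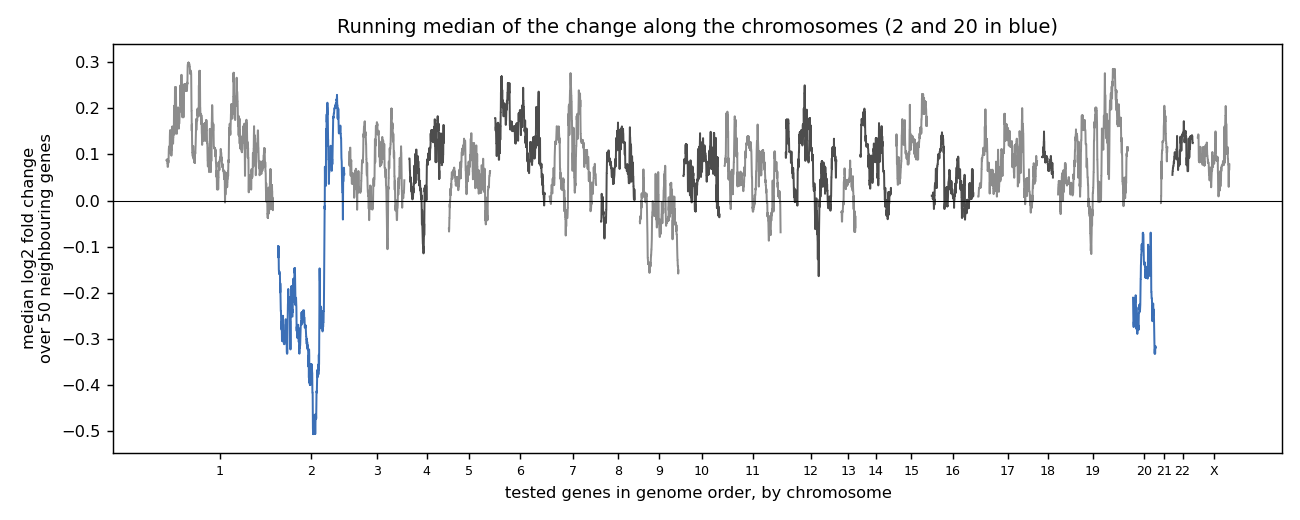
Running median of the log2 change (siRNA against si-NC, y axis) over 50 neighbouring tested genes, with genes in genome order by rank along the x axis and chromosomes side by side. Chromosome 20 and all but the last stretch of chromosome 2, in blue, lie below 0, and the medians over their genes are -0.22 and -0.15.

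Markers of other cell types stayed low or moved with the groups. Summed levels of 9 epithelial markers ran from 1723 to 1811 FPKM in si-NC and from 2426 to 2665 FPKM in the siRNA libraries. Of the 9, 4 were higher and 5 lower. KRT19 alone gained 921 FPKM on average, while EPCAM, ESRP2, CLDN4, KRT8 and KRT18 fell, so the sum does not describe the markers as a set. The 16 markers listed for MDA-MB-231 summed to 2379 to 2425 FPKM in si-NC and 1719 to 1869 FPKM in the siRNA libraries, with 10 lower and 3 higher. ANXA1, at 634 to 719 FPKM over all libraries, was not called, and CAV1, LGALS1 and S100A4 were the higher ones. That sum does not describe its markers as a set either. The 7 luminal breast markers summed to 77.4 to 82.6 FPKM and 111 to 115 FPKM, with 5 higher, and the 8 fibroblast markers to 15.4 to 16.6 FPKM and 26.8 to 29.7 FPKM, with 3 higher. Of the fibroblast markers, COL1A2 and COL3A1 stayed at or below 0.04 FPKM. COL1A1, LUM and THY1 were the higher ones, reaching 9.37, 5.32 and 15.75 FPKM in the siRNA libraries. Blood markers summed to at most 4.43 FPKM and endothelial markers to at most 0.60 FPKM in any library. In bulk RNA, fewer cells of a type and less RNA per cell cannot be told apart, and the part of mixed cell states in these results was not tested.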

How the data were processed

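RNA sequencing of 9 libraries (3 each of si-NC, si1-BCLIN25 and si2-BCLIN25) was analysed from the table the authors deposited, which gives FPKM per Entrez gene. Total RNA was taken with Trizol and sequenced by BGI500 protocols, per the labels' protocols. RSEM 1.2.12, HISAT2 2.0.4, DESeq2 1.4.5 and Bowtie2 2.2.5 appear in the submitters' processing notes, and the genome build is not given in the sources used here. RSEM shares reads between similar genes by estimation, so near-identical genes are uncertain singly.

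Genes at 1 FPKM or more in at least 3 libraries were kept (12317 of 18064, of which 12237 matched a symbol in RefSeq's GRCh38.p14 table). In R 4.3.3, limma 3.58.1 fitted log2(FPKM + 1), with 3 group means, a variance trend and Benjamini-Hochberg adjustment over all genes kept, at a threshold of 0.05. The change is the mean of both siRNA groups minus si-NC, and a pseudocount of 1 understates the change of low genes. Errors beside changes are standard errors of that fit. FPKM holds no counts, so no count test was run and the depth is unknown. On simulated data of 12317 genes for this contrast, 82% of 1.25-fold, 98% of 1.5-fold and 100% of 2-fold changes were recovered. Only 50 genes per fold were changed there, none of low level, with independent noise, and 15 unchanged genes were called. Most genes were called in the real data, so these shares do not carry over to it or to its low genes.

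The members and lists were chosen with earlier results of these data known. Genes named are, among called genes of at least median level whose groups do not overlap, the 20 that rose and the 20 that fell most, the 10 largest gains and losses of FPKM, genes that switch on or off, up to 6 members per list by p, the 10 with the largest called difference between the siRNA groups, reference genes and RB1, which the design text names. Other list members named beside them were chosen after their values were seen. Lists are described by counts and medians, with no set test. Alternatives were another normalization, pseudocount, filter, variance model, grouping and fold minimum, a replicate block and each library left out. Some genes and 1 list are not reported here.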

Additional observations from a re-analysis of the deposited data

Results flagged for a closer look

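For 21 of the genes named by rule, the siRNA groups differed from each other in the limma fit, at an adjusted p under 0.05. The difference given is si1-BCLIN25 minus si2-BCLIN25 on the log2 scale, and since both share their controls it is also the difference between their changes against si-NC. Of the 21, 10 were named for the size of this very difference, and 5 of them (PI3, FGFBP1, LGALS3, RNASE7 and PQBP1) by no other rule, so their number is in part set by the choice of names. It was above 0 for 15 genes. Among keratinocyte and barrier genes these were PI3 (0.86), LY6D (0.59), SPRR1B (0.53), S100A8 (0.51), S100A9 (0.32), SLPI (0.31) and KRT17 (0.21). The others were FGFBP1 (0.42), MMP13 (0.42), PQBP1 (0.33), NRARP (0.30), CSF3 (0.28), FADS2 (0.24), SCD (0.19) and FERMT1 (0.17). It was below 0 for 6 genes, VIM (-0.63), LGALS3 (-0.38), KRT80 (-0.36), RNASE7 (-0.36), ENO2 (-0.26) and FOSL1 (-0.25). VIM, the mesenchymal intermediate filament protein, fell with both siRNAs, further with si1-BCLIN25. PI3, an elastase inhibitor, changed by 0.13 with si1-BCLIN25 alone (limma adjusted p = 0.267) and was called lower over both groups. Over all genes 72 differed (0.585%), and leaving out single libraries moved that count from 2 to 126.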

How the results depend on the processing

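The count of genes called, 8294, was 7751 to 8119 with each library left out, 7766 and 7759 with si1-BCLIN25 or si2-BCLIN25 alone, and 8151 with the replicate number as a block. Same-numbered libraries of different groups deviated with correlations of -0.16 to 0.14, and differently numbered ones with -0.19 to 0.22. Whether same-numbered libraries shared a culture or a batch cannot be read from this. A fold minimum of 1.2 left 3088 genes, 1947 higher and 1141 lower. The 556 genes at least 2-fold changed became 926 with a pseudocount of 0.1. The 4290 genes within 0.25 log2 units became 7647 with no filter, which tests more genes.

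The difference between the siRNAs is the fragile result. Its 72 genes became 2 with no filter, 110 at a minimum of 5 FPKM, 13 without a variance trend, 6 with the replicate block and 1 with a fold minimum. Leaving out si1-BCLIN25 replicate 2 or 3 gave 5 each, si2-BCLIN25 replicate 1, 2 or 3 gave 3, 8 and 2, and si-NC replicate 1 gave 126. The cause was not tested. The direction reversed under quantile normalization for EEF1A1 (-0.048), PPIA (-0.068) and TUBB (-0.0097), and PI3 was 0.13 with si1-BCLIN25 alone. Of 286 genes named by rule, 6 changed their call when a library was left out and 43 lost it at the fold minimum. Without chromosomes 2 and 20, a choice made after seeing the data, 7423 of 11179 genes were called. FPKM gives no depth, so the limit of detection of low genes is unknown.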
